A study of Zea mays with 21 samples.

Results

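Of the 6098 long non-coding RNAs (lncRNAs) listed for waterlogged maize root tips, 217 were at 0 in all 3 libraries taken after 4 h of waterlogging (WS_4h) and above 0 in each of the 18 libraries of the other 6 time points. The members were chosen by that pattern alone, so the zeros at WS_4h are their definition and were not tested. They make up 3.56% of all lncRNAs and 9.11% of the 2381 lncRNAs that were above 0 in the 18 libraries outside WS_4h. The rule allowed up to 300 members, and that limit was not reached.

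The plants were seedlings of B73, the maize inbred line whose genome serves as the reference, and no group carried a transgene or mutation. Root tips were sampled before waterlogging (WS_0h) and after 2, 4, 6, 8, 10 and 12 h of it (WS_2h, WS_4h, WS_6h, WS_8h, WS_10h and WS_12h), with 3 libraries per time point and 10 mixed root tips in each library. Waterlogging started in the morning and the samples followed each other through the day, so hours of stress and time of day cannot be told apart. Each value below describes a pool of root tips, and the spread between the 3 libraries is the spread between such pools. In such bulk tissue, fewer cells of a type and less RNA per cell cannot be told apart.

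lncRNAs are transcripts longer than most small RNAs that carry no long open reading frame. Many are transcribed by the same polymerase as mRNAs, and in plants some act in flowering, in phosphate supply and in responses to stress, while for most no role is known. Waterlogging cuts off oxygen from roots, which then turn to fermentation and change the transcription of many genes within hours. The members are known here by their assembly numbers, and the files give no position, neighbouring gene or function for them.

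All values are TPM, an RNA-seq level scaled by transcript length and by the total of the library. The 3 WS_4h libraries stood apart: their scale factors, the median ratio of a library to the others over the 2164 lncRNAs above 0 in all 21 libraries, were 1.90 to 2.27, against 0.848 to 1.09 in 13 other libraries. In 5 libraries (WS_6h replicate 2, WS_8h replicates 1 and 2, WS_12h replicates 1 and 3) the factors were 0.0603 to 0.408. Levels are therefore given as rescaled TPM, the TPM divided by the factor of its library, unless they are said to be as listed. No member entered the factors, since members are at 0 in 3 libraries.

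Outside WS_4h the members were not a set of barely detected transcripts. Their mean rescaled TPM over the 18 libraries had a median of 10.3, with the middle 50% of members between 3.32 and 52.1. The lncRNAs above 0 in all 21 libraries had a median of 11.1 over the same 18 libraries, with the middle 50% between 3.76 and 47.8. In all, 195 of the 217 members had a mean above 1 rescaled TPM at each of the 6 time points, 86 had one above 10 at each, and 29 had one above 100 at each. The shares at those thresholds were 89.9%, 39.6% and 13.4% of members, against 88.5%, 43.2% and 14.3% of the lncRNAs detected throughout. At the low end, 3 members had a time point mean under 0.5 rescaled TPM. As listed the low end was wider, since 198 of the 217 members had a mean above 0.5 TPM at each of the 6 time points.

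**Figure D1:**
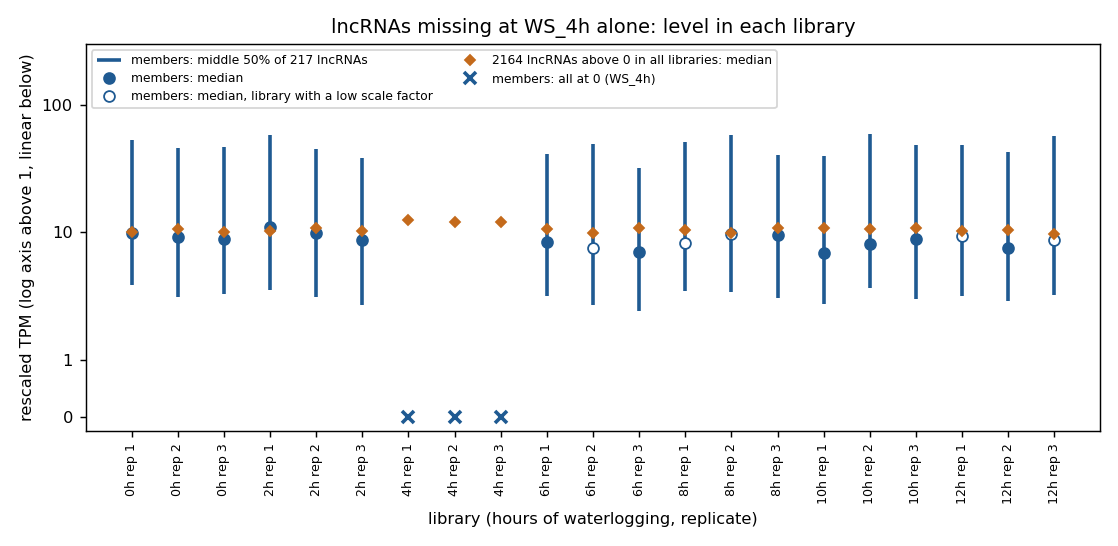
Rescaled TPM in each of the 21 libraries, on an axis that is logarithmic above 1; circles give the median of the 217 members, bars their middle 50%, open circles the 5 libraries with low scale factors, and diamonds the median of the 2164 lncRNAs above 0 in all libraries. The members' medians lie between 6.96 and 11.1 in the 18 libraries outside WS_4h, and all members are at 0 in the 3 WS_4h libraries, where the diamonds lie between 12.1 and 12.5.

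The members' median was similar in every library outside WS_4h once libraries were rescaled. It was 6.96 to 11.1 in the 13 libraries with ordinary factors and 7.53 to 9.71 in the 5 with low factors. As listed, the same medians were 7.09 to 10.4 TPM in the 13 libraries and 0.50 to 3.96 TPM in the 5. As listed, many members thus lay low in the 5 libraries. Some lay far above 0 there, such as TCONS_00028520, which was listed at 157 TPM or more in each of the 18 libraries.

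Other time points had fewer lncRNAs of this kind. The lncRNAs at 0 at a single time point and above 0 at the other 6 numbered 84 for WS_0h, 63 for WS_2h, 217 for WS_4h, 71 for WS_6h, 143 for WS_8h, 47 for WS_10h and 143 for WS_12h. As shares of the lncRNAs above 0 at the other 6 time points these were 3.74, 2.83, 9.11, 3.18, 6.20, 2.13 and 6.20%. WS_4h was not short of lncRNAs in general: 4466 were listed above 0 at WS_4h, against 3643 to 4331 at the other time points, and the 1632 at 0 there were 26.8% of all lncRNAs. The 217 members were 13.3% of those 1632. Another 139 lncRNAs were at 0 at WS_4h and at 1 further time point, which was WS_0h for 14, WS_2h for 13, WS_6h for 27, WS_8h for 41, WS_10h for 10 and WS_12h for 34. WS_4h also had the most lncRNAs listed there alone, 223, against 36 to 159 at the other time points. Of the 2164 lncRNAs above 0 in all 21 libraries, 32.1% had a WS_4h mean more than 1 log2 unit below their mean elsewhere. A further 28.4% had one more than 1 log2 unit above it (rescaled TPM). On this scale the WS_4h means thus departed from the others in both directions, which was not tested. The count below depends on the scaling: it was 694 lncRNAs rescaled and 205 as listed, while the count above was not made as listed. Other time points were not counted in this way, so whether WS_4h departed more than they did is not known.

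The lncRNAs at 0 at WS_4h alone were also more abundant elsewhere than those at 0 at another single time point. Their median of the mean rescaled TPM at the other 6 time points was 10.3, against 2.61 to 3.88 for the lncRNAs at 0 at 1 of the other time points alone. Of the members, 50.7% had such a mean above 10, against 15.9 to 26.8% in the other sets. The lowest of a member's 6 time point means had a median of 5.21, against 1.0 to 1.53 in the other sets. These are counts and medians over transcripts and were not tested.

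**Figure D2:**
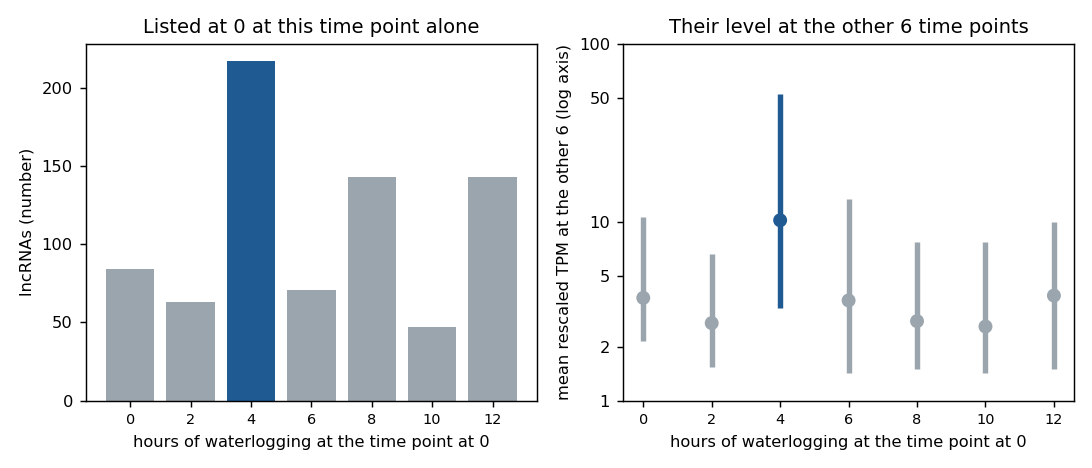
Left, number of lncRNAs at 0 at the time point on the x axis (hours of waterlogging) and above 0 at the other 6; right, their mean rescaled TPM at the other 6 on a log axis, with the median as a point and the middle 50% as a bar. WS_4h, in blue, has 217 lncRNAs with a median of 10.3, and the other time points have 47 to 143 with medians of 2.61 to 3.88.

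A 0 in this lncRNA table was always a 0 of a whole time point. Taken by lncRNA and by time point, 14068 combinations had all 3 libraries at 0, 28618 had all 3 above 0, and 0 had 1 or 2 libraries at 0. In the table of protein-coding genes (PCgenes), which was counted with another tool, 946 combinations had 1 or 2 libraries at 0. The study's methods remove lncRNA isoforms at 0 or with a mean under 0.5 TPM at a condition, yet 1655 combinations listed above 0 (5.78%) had a mean under 0.5 TPM, 10 of them at WS_4h. Whether a member listed at 0 had no reads, a low value removed by a filter, or reads in only some of the WS_4h libraries cannot be told here. A member is therefore described as listed at 0, and no fold is given for WS_4h. Among lncRNAs above 0 at WS_4h the lowest mean was 0.157 TPM, the 5th percentile 1.53 TPM and the median 12.6 TPM, all as listed. Of the 23175 PCgenes, 6 had the members' pattern, and these lay between 0.13 and 14.9 TPM in the 18 libraries outside WS_4h.

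The edge of the rule at low levels is shown by 4 lncRNAs. TCONS_00029742, just outside, had 0.89, 0.13 and 0.14 TPM at WS_4h and 0.02 to 2.25 TPM elsewhere, and TCONS_00068290 had 0.26, 0.53 and 0.58 TPM at WS_4h and 0.04 to 2.39 TPM elsewhere. Just inside, TCONS_00183569 was listed at 0 at WS_4h and had 0.02 to 4.84 TPM elsewhere, and TCONS_00120256 was at 0 at WS_4h and had 0.03 to 1.44 TPM elsewhere. These 4 differ little in level, and the members described next lie far from that edge.

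TCONS_00028520 was the most abundant member whose level did not stand apart in the 5 libraries with low factors. It had 3401, 1899 and 3248 rescaled TPM at WS_0h, 4942, 3594 and 3645 at WS_2h, 0 in the 3 libraries at WS_4h and 2799, 4374 and 2113 at WS_6h. It then had 2607, 4999 and 4149 at WS_8h, 4847, 4193 and 3492 at WS_10h and 1939.9, 2328 and 6325 at WS_12h. A transcript that was at 1899 rescaled TPM or more in 18 libraries was thus listed at 0 in 3, and no time point outside WS_4h stood clear of the others.

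TCONS_00109554 was the steadiest member by the spread of its time point means. Its 18 values ran between 413 and 1260.2 rescaled TPM, and the SD of its 6 time point means was 0.14 on the log2 scale. The means were 831 ± 259 at WS_0h and 649 ± 210.4 at WS_2h before the zeros, then 756 ± 267 at WS_6h and 842 ± 364 at WS_8h, and last 723 ± 107 at WS_10h and 740.0 ± 161 at WS_12h (SD, n = 3 each). Apart from the listed 0 at WS_4h, each of these means differs from its neighbours in time by less than the larger SD of the pair.

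The other steady members were far less abundant. TCONS_00166436, TCONS_00169824, TCONS_00036847 and TCONS_00028862 had SDs of their time point means of 0.16 to 0.20 on the log2 scale and mean levels of 26.1, 19.6, 9.23 and 26.2 rescaled TPM. Steady means did not always rest on steady libraries. TCONS_00036847 had 3.88 to 14.9 rescaled TPM over the 18 libraries, while TCONS_00166436 had 3.03 to 60.1.

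TCONS_00198934, TCONS_00109394 and TCONS_00023716 were also among the most abundant members. TCONS_00198934 had a mean of 1589.5 with a range of 676 to 3104, and its lowest time point mean was at WS_6h, with 1077, 828 and 676. TCONS_00109394 had a mean of 731 with a range of 289 to 1286. TCONS_00023716 had 813, 2151 and 1515 at WS_0h, a mean of 895 at WS_2h, and after the zeros means of 452 (WS_6h), 524 (WS_8h), 546 (WS_10h) and 856 (WS_12h). Its 3 libraries at WS_0h lay above each library of WS_6h and WS_8h and overlapped those of WS_2h, WS_10h and WS_12h. All the same, TCONS_00198934, TCONS_00109394 and TCONS_00023716 did not pass the limma F test over the 6 time points.

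**Figure D3:**
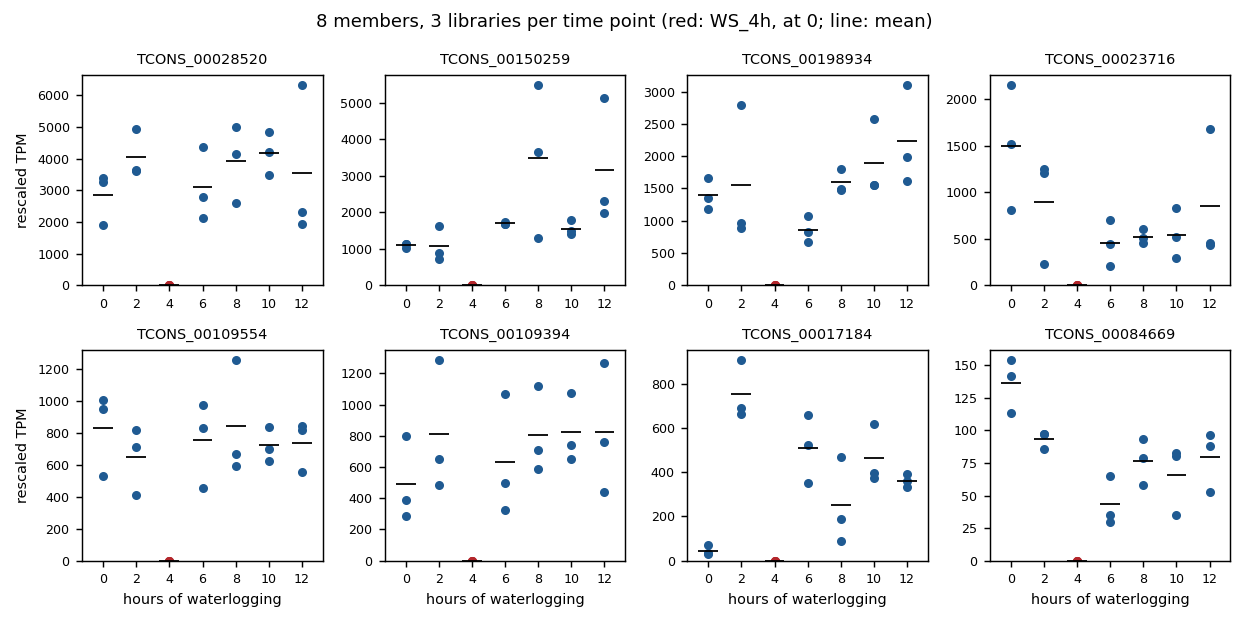
Rescaled TPM of 8 members against hours of waterlogging, with 1 point per library, red points at WS_4h and a line at each mean. All 8 are at 0 at 4 h; TCONS_00028520 lies between 1899 and 6325 elsewhere, TCONS_00109554 between 413 and 1260.2, and TCONS_00017184 has 664 to 909 at WS_2h.

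A pair of abundant members needs a reading of its own. TCONS_00199441 followed the 5 libraries with low factors. As listed it had 78539 TPM in WS_6h replicate 2, 83780.4 and 44409 in WS_8h replicates 1 and 2, and 46938 and 60938 in WS_12h replicates 1 and 3, against 618 to 17212 TPM in the other 13 libraries outside WS_4h. It took 8.44 to 24.8% of all lncRNA TPM in the 5 libraries and 0.0726 to 2.28% in the 13. With it, the members summed to 10.5 to 25.4% of lncRNA TPM in the 5 libraries, against 2.53 to 4.66% in the 13. All lncRNAs together summed to 337609 to 526373 TPM in the 5 libraries, against 754563 to 877167 in the 13, so the share of TCONS_00199441 is taken of a smaller sum there. The part of TCONS_00199441 in the low factors was not tested.

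**Figure D4:**
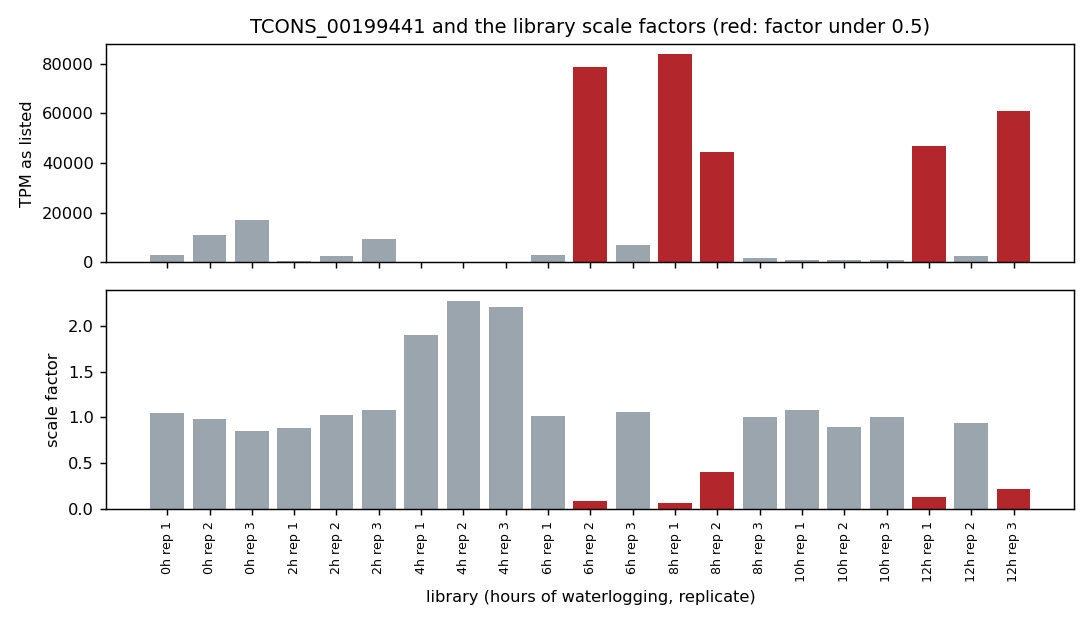
Top, TPM of TCONS_00199441 as listed in each of the 21 libraries; bottom, the scale factor of each library. Red bars mark the 5 libraries with factors of 0.0603 to 0.408, where TCONS_00199441 has 44409 to 83780.4 TPM, and the 3 WS_4h libraries have it at 0 and factors of 1.90 to 2.27.

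TCONS_00182526 did not vary as a level does. It was listed at 340.1 to 368 TPM in all 18 libraries outside WS_4h, including the 5 where most lncRNAs were listed low. Its differences from library to library were the same, within 0.24 TPM, as those of 20 other lncRNAs. At WS_4h those 20 were listed at 179 TPM or more, and TCONS_00182526 at 0. Rescaled values of TCONS_00182526 therefore carry no information and are not described. TCONS_00182526 remains in the counts and medians over all 217 members. Leaving out these 21 lncRNAs from the fit changed no count of called members given below.

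The next question was whether the members changed at the time points that the rule did not fix. The 18 libraries were fitted together with limma on log2(rescaled TPM + 1), and p-values were adjusted over all 6098 lncRNAs by the Benjamini-Hochberg method. Many of those lncRNAs were at 0 at whole time points, so the adjusted p of a member depends on transcripts unlike it. In each test fewer members passed when only the 2381 lncRNAs above 0 in the 18 libraries were fitted. By the F test over the 6 time points 40 of the 217 members changed, or 18.4%, against 63.2% of all lncRNAs and 19.6% of the 2164 lncRNAs above 0 in all 21 libraries. The share over all lncRNAs includes transcripts at 0 at some of the 6 time points, which members are not by definition, so the lncRNAs detected throughout are the nearer comparison. In all, 166 members passed none of the tests. The count of 40 was 22 without the 5 libraries with low factors, 19 when only the 2381 lncRNAs above 0 in the 18 libraries were fitted, and 17 on TPM as listed. The range of a member's 6 time point means had a median of 1.07 on the log2 scale, against 0.85 for lncRNAs detected throughout, and the SD between replicates had a median of 0.59, against 0.44.

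The members did not share a time course. Their highest time point mean was found at WS_0h for 43 members, WS_2h for 44, WS_6h for 23, WS_8h for 48, WS_10h for 29 and WS_12h for 30. In the same order, 40, 28, 64, 23, 38 and 24 members had their lowest mean outside WS_4h. WS_6h, the time point after the zeros, was thus the lowest for 29.5% of members, against 19.8% of the lncRNAs detected throughout. Of the 40 members that changed by the F test, 15 were highest at WS_0h and 14 were lowest at WS_6h. The same counts were not made for other lncRNAs that passed the F test, so they are not a trait of the members. Over all members, 19.8% were highest at WS_0h, against 23.3% of the lncRNAs detected throughout.

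**Figure D5:**
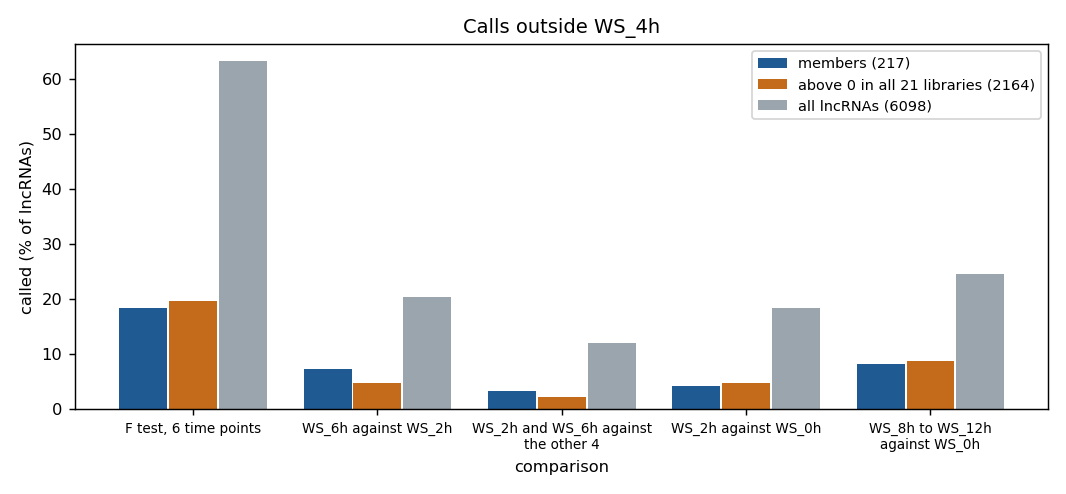
Share of lncRNAs called in each comparison outside WS_4h, for the 217 members (blue), the 2164 lncRNAs above 0 in all 21 libraries (orange) and all 6098 lncRNAs (grey). Members are called at 18.4% by the F test and at 7.37, 3.23, 4.15 and 8.29% in the 4 directed comparisons. In the same order, the lncRNAs above 0 in all 21 libraries are called at 19.6% and at 4.85, 2.22, 4.85 and 8.83%. The shares over all lncRNAs are higher and include lncRNAs at 0 at whole time points outside WS_4h, which members are not by the rule.

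TCONS_00017184 had the largest difference from WS_0h among the members called. At WS_2h it had 909, 664 and 689 rescaled TPM, against 70.2, 35.7 and 30.9 at WS_0h, so every WS_2h library lay above every WS_0h library. The difference was 4.1 ± 0.48 on the log2 scale (SE), with a limma adjusted p of 1.49e-05. After the zeros of WS_4h it had 523, 659 and 349 at WS_6h, 87.8, 189 and 471 at WS_8h, 621, 372 and 398 at WS_10h and 332, 391 and 362 at WS_12h. A transcript that was higher at WS_2h than at WS_0h was therefore listed at 0 in the 4 h libraries and above 0 again in each library after that. The 9 libraries of WS_8h, WS_10h and WS_12h (lowest 87.8, median 372, highest 621) exceeded the 3 of WS_0h by 2.87 ± 0.40 on the log2 scale (SE, limma adjusted p = 4.62e-05). Its difference at WS_2h kept the call whichever library was left out and also on TPM as listed; the late difference was 1.79 on TPM as listed and missed the threshold there.

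The lncRNA with the number before it had the reverse of this pattern at WS_4h. TCONS_00017183 was at 0 at WS_0h, WS_2h and WS_8h and had 192, 476 and 363 rescaled TPM at WS_4h. It had means of 230.0 ± 113 at WS_6h, 176 ± 81.2 at WS_10h and 275 ± 82.4 at WS_12h (SD, n = 3 each). TCONS_00017183 was singled out after its values were seen. The files give no position for either transcript, and whether they are isoforms of 1 locus is not known here.

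At WS_2h, 9 members differed from WS_0h, with 5 higher and 4 lower. That is 4.15% of members, against 18.4% of all lncRNAs and 4.85% of the lncRNAs detected throughout. The higher ones were 2.3% of members, against 8.33% of all lncRNAs and 3.93% of those detected throughout, and the lower ones 1.84%, against 10 and 0.924%. In 7 of the 9 the libraries of WS_2h and WS_0h did not overlap. Overlap was counted for called members only, without a share over other lncRNAs, so it adds no support to the calls. The median difference of all 217 members was -0.01 on the log2 scale, with 105 above and 112 below 0, against 0 for all lncRNAs. The count of 9 was 5 without WS_0h replicate 2, 5 when only the 2381 lncRNAs were fitted, and 1 on TPM as listed.

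TCONS_00143266 fell at WS_2h and stayed low. It had 22.1, 36.4 and 30.9 rescaled TPM at WS_2h, against 124, 114 and 72.7 at WS_0h, a difference of -1.75 ± 0.28 on the log2 scale (SE, limma adjusted p = 0.00021). In the 9 late libraries it had 12.2 to 21.8, with a median of 14.3, a difference from WS_0h of -2.66 ± 0.23 (SE, limma adjusted p = 4.3e-07). No library at or after WS_2h reached the lowest WS_0h library. The means of TCONS_00143266 were 29.8 at WS_2h and 17.9 at WS_6h, and the listed zeros lie below both. On TPM as listed the late call held and the WS_2h difference, -1.70, missed the threshold.

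TCONS_00169554 also fell early. It had 9.80, 6.19 and 9.98 rescaled TPM at WS_2h, against 56.7, 42.8 and 31.1 at WS_0h, and the difference was -2.19 ± 0.50 on the log2 scale (SE, limma adjusted p = 0.00383). Unlike TCONS_00143266 it had scattered late values of 5.69 to 45.6, which overlapped those of WS_0h, and its late difference of -1.32 ± 0.41 (SE) still passed (limma adjusted p = 0.018). TCONS_00099422 had 8.87, 29.4 and 38.8 at WS_2h, against 53.2, 54.5 and 44.6 at WS_0h. Its call (-1.17 ± 0.36, SE, limma adjusted p = 0.0252) was lost without WS_2h replicate 1, at -0.57, and without WS_0h replicate 1 or 2, at -1.14 and -1.12. With TPM as listed the WS_2h calls of TCONS_00169554 and TCONS_00099422 were lost (-2.14 and -1.12), and that of TCONS_00099422 also without the 5 libraries with low factors and when only the 2381 lncRNAs were fitted (-1.17 each). The late call of TCONS_00169554 was lost without WS_0h replicate 1 or 2, at -1.11 and -1.31.

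3 members rose at WS_2h and were lower again at WS_6h, TCONS_00029069, TCONS_00132601 and TCONS_00193306. Both comparisons use the same WS_2h libraries, so a high WS_2h value gives both calls. TCONS_00193306 had 19.7, 14.2 and 12.9 rescaled TPM at WS_2h, against 3.64, 2.57 and 6.83 at WS_0h, a difference of 1.69 ± 0.41 on the log2 scale (SE, limma adjusted p = 0.00578). It then had 9.35, 3.77 and 4.53 at WS_6h, all below the WS_2h libraries. TCONS_00132601 averaged 329 ± 90.9 at WS_2h, against 145 ± 47.3 at WS_0h, and 135 ± 25.2 at WS_6h (SD, n = 3 each). TCONS_00029069 had 11.9, 3.02 and 13 at WS_2h, against 3.72, 0.670 and 1.11 at WS_0h. Its groups overlap, and the WS_2h call was lost without WS_0h replicate 2, at 1.51. TCONS_00132601 was not picked by the rule for named members and is named because the count of 3 includes it. Its WS_2h call was lost without WS_0h replicate 1 or 2 (1.26 and 0.91) and without WS_2h replicate 1 or 2 (1.02 and 1.13). The WS_6h call of TCONS_00132601 was lost without WS_2h replicate 1 or 2 (-1.08 and -1.19) and without WS_6h replicate 1 or 3 (-1.11 and -1.27), and that of TCONS_00193306 without WS_2h replicate 1 (-1.16) and without WS_6h replicate 2 or 3 (-1.11 and -1.22). That of TCONS_00029069 was lost without WS_2h replicate 1 or 3 (-1.14 and -1.08), any replicate of WS_6h (-1.38 to -1.44), WS_8h replicate 2 or WS_10h replicate 2 (-1.40 each), and with a pseudocount of 0.1 (-1.66). All 6 calls of TCONS_00029069, TCONS_00132601 and TCONS_00193306 were lost on TPM as listed, at 1.83, 1.25 and 1.74 for WS_2h against WS_0h and -1.87, -2.36 and -1.92 for WS_6h against WS_2h. The WS_6h calls of all 3 and the WS_2h call of TCONS_00132601 (1.19) were also lost when only the 2381 lncRNAs were fitted, and the WS_6h calls of TCONS_00029069 and TCONS_00193306 without the 5 libraries with low factors (-1.40 and -1.11).

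WS_6h against WS_2h sets the time point after the zeros against the one before them. Of the members, 16 differed, 15 of them lower at WS_6h and 1 higher. That is 7.37% of members, against 20.4% of all lncRNAs and 4.85% of the lncRNAs detected throughout. The 15 lower members are 6.91% of members, against 9.86% of all lncRNAs and 2.08% of the lncRNAs detected throughout, and the 1 higher member is 0.461%, against 10.6 and 2.77%. The libraries of both time points did not overlap in 13 of the 16, again counted for called members only and so no added support. The median difference over all members was -0.27 on the log2 scale, with 79 above and 138 below 0, against 0 over all lncRNAs and -0.02 over those detected throughout. The scale factors were set on the lncRNAs detected throughout, so a median near 0 was fixed for them by the scaling. The median over all lncRNAs includes transcripts at 0 at both time points. Neither value is thus an independent reference, and the shift of the members was not tested.

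TCONS_00084669, the only member that the study names in its text, was among the 15. It had 65.0, 30.0 and 35.4 rescaled TPM at WS_6h, against 97.0, 97.0 and 85.4 at WS_2h, and every WS_6h library lay below every WS_2h library. The difference was -1.16 ± 0.35 on the log2 scale (SE, limma adjusted p = 0.0227). It had 114, 154 and 142 at WS_0h, and its late means were 76.7 ± 17.8 at WS_8h, 66.0 ± 26.8 at WS_10h and 79.2 ± 23.3 at WS_12h (SD, n = 3 each). The level was thus highest before waterlogging, at 0 at WS_4h and partly back later. The member with the number before it, TCONS_00084668, had 19.96 ± 0.855 at WS_0h, 10.6 ± 7.15 at WS_2h, 9.26 ± 6.50 at WS_6h and 5.56 to 16.3 as means after that. The call of TCONS_00084669 was lost without WS_2h replicate 1 or 2 (-1.13 each) and without WS_6h replicate 2 or 3 (-0.94 and -1.05), as well as without the 5 libraries with low factors (-0.94) and on TPM as listed (-2.16).

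The study placed TCONS_00084669 in a co-expression network beside genes for phenylalanine ammonia-lyase, the enzyme that opens the phenylpropanoid pathway towards lignin and phenolics. These PCgenes were low at WS_4h without being at 0. As listed, Zm00001d003015 had 0.97, 2.10 and 1.59 TPM at WS_4h, against 17.5, 18.8 and 13.8 at WS_0h. Zm00001d051166 had 0.33, 0.98 and 1.18 TPM at WS_4h, against 15.9, 20.1 and 15.3 at WS_0h. Zm00001d017276 had 1.19, 4.06 and 2.48 TPM at WS_4h, against 39.6, 47.6 and 63.6 at WS_0h. In all 3 every WS_4h library lay below each of the 18 other libraries, the lowest of which were 4.42, 3.48 and 15.5 TPM. These PCgenes were named because the study sets them beside a member, and no test was made. The study picked them from these same libraries, as down-regulated genes of a module negatively related to WS_4h. Low values at WS_4h were thus part of that choice. Peroxidase genes that the study names in the same module are not described here.

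TCONS_00110029, TCONS_00002763 and TCONS_00089491 had the largest falls among the 15. TCONS_00110029 had 41.3, 13.3 and 22.2 rescaled TPM at WS_6h, against 86.5, 63.6 and 93.1 at WS_2h, without overlap, and the difference was -1.75 ± 0.57 on the log2 scale (SE, limma adjusted p = 0.033). TCONS_00002763 had 10.8, 1.65 and 1.92 at WS_6h, against 22.8, 14.7 and 9.34 at WS_2h (-1.80 ± 0.57, SE, limma adjusted p = 0.0273), with overlapping libraries. TCONS_00089491 had 5.46, 2.94 and 5.20 at WS_6h, against 28.9, 12.7 and 13.6 at WS_2h (-1.75 ± 0.48, SE, limma adjusted p = 0.0129), again without overlap. Without WS_2h replicate 1 these 3 calls were lost (-1.69, -1.50 and -1.38), as they were without WS_6h replicate 2 (-1.37, -1.42 and -1.52). Without WS_6h replicate 3 the calls of TCONS_00110029 and TCONS_00002763 were lost (-1.72 and -1.49), without WS_2h replicate 3 that of TCONS_00110029 (-1.64), and without WS_2h replicate 2 that of TCONS_00002763 (-1.80). The replicate block also ended the call of TCONS_00110029 (-1.75). The calls of TCONS_00110029, TCONS_00002763 and TCONS_00089491 were lost on TPM as listed at -2.62, -2.17 and -2.26, and without the 5 libraries with low factors at -1.37, -1.42 and -1.52.

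TCONS_00063227 alone of the members was higher at WS_6h. It had 17.4, 6.83 and 11.2 rescaled TPM at WS_6h, against 2.86, 4.21 and 3.40 at WS_2h, a difference of 1.44 ± 0.43 on the log2 scale (SE, limma adjusted p = 0.0205). The groups did not overlap, while WS_0h, with 7.72, 8.38 and 3.19, overlapped both. Its call was lost without WS_2h replicate 1 or 3 (1.33 and 1.43) and without WS_6h replicate 1 or 3 (1.13 and 1.43), and on TPM as listed (0.70). The count of 16 was 3 without WS_2h replicate 1, and it was 7 and 4 when WS_6h replicate 2 or 3 was left out. It was 0 when only the 2381 lncRNAs above 0 in the 18 libraries were fitted with limma, where 37 members had an unadjusted p under 0.05, 7 without the 5 libraries with low factors, and 4 on TPM as listed.

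The 2 time points on either side of WS_4h were also set together against WS_0h, WS_8h, WS_10h and WS_12h. Here 7 members differed, 3 higher and 4 lower, or 3.23%, against 12% of all lncRNAs and 2.22% of the lncRNAs detected throughout. The higher ones were 1.38% of members, against 6.61% of all lncRNAs and 1.62% of those detected throughout, and the lower ones 1.84%, against 5.36 and 0.601%. In each of the 7 the libraries of both sides overlapped. The median over all members was -0.07 on the log2 scale, with 95 above and 122 below 0. These few calls went in both directions. The comparison does not single out the time around WS_4h, because a low WS_0h or a late rise can also give a call. TCONS_00017184, for example, had means of 45.6 rescaled TPM at WS_0h, 510 at WS_6h and 464 at WS_10h.

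TCONS_00067755 had the highest levels among the members called higher in this comparison, other than TCONS_00017184. Its 6 libraries of WS_2h and WS_6h had 133 to 441 rescaled TPM with a median of 259.6, against 16.2 to 245 with a median of 107 in the 12 others (1.37 ± 0.42 on the log2 scale, SE, limma adjusted p = 0.0201). TCONS_00132458 had 10.6 to 52.5 with a median of 16.3 on both sides of WS_4h, against 0.830 to 13 with a median of 7.72 (1.37 ± 0.34, SE, limma adjusted p = 0.00563). TCONS_00017184 exceeded the 12 others by 1.64 ± 0.30 (SE, limma adjusted p = 0.000607). These 3 members had their highest time point mean at WS_2h or WS_6h, which the comparison that called them favours. The call of TCONS_00067755 was lost without WS_2h replicate 3 (1.24) and without WS_6h replicate 2 (1.18), and when only the 2381 lncRNAs were fitted (1.37). On TPM as listed the calls of TCONS_00132458 (1.41) and TCONS_00017184 (1.94) were lost, the first also without the 5 libraries with low factors (1.08).

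TCONS_00177556 had the opposite form. It had 0.471 to 10.9 rescaled TPM with a median of 2.12 at WS_2h and WS_6h, against 1.47 to 63.4 with a median of 21.5 in the 12 others, a difference of -2.29 ± 0.58 on the log2 scale (SE, limma adjusted p = 0.00684). Most of this came late, since it had 3.75, 3.14 and 7.73 at WS_0h and 63.4, 22.2 and 52.0 at WS_12h. TCONS_00028611 differed by -1.17 ± 0.32 and TCONS_00098633 by -1.14 ± 0.33 (SE, limma adjusted p = 0.0113 and 0.0164). TCONS_00098633 had 65.6 to 116 on both sides of WS_4h, against 84.8 to 447 elsewhere. The call of TCONS_00028611 was lost without WS_2h replicate 3 (-0.97) and without WS_6h replicate 3 (-0.87). The calls of TCONS_00177556, TCONS_00028611 and TCONS_00098633 were lost on TPM as listed (-1.65, -0.78 and -0.80), as they were without the 5 libraries with low factors (-2.06, -1.08 and -0.76), and that of TCONS_00098633 also when only the 2381 lncRNAs were fitted (-1.14). The count of 7 was 12 without WS_2h replicate 1 and 13 without WS_6h replicate 1, 11 with a pseudocount of 0.1, 4 when only the 2381 lncRNAs were fitted, and 1 on TPM as listed.

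After 8 to 12 h, 18 members differed from WS_0h, 7 higher and 11 lower. That is 8.29% of members, against 24.5% of all lncRNAs and 8.83% of the lncRNAs detected throughout. The higher ones were 3.23% of members, against 10.1% of all lncRNAs and 5.45% of those detected throughout, and the lower ones 5.07%, against 14.4 and 3.37%. The median over all members was -0.03 on the log2 scale, with 105 above and 112 below 0. In 8 of the 18 the late and WS_0h libraries did not overlap, again counted for called members only and so no added support. Without WS_0h replicate 2 the count was 11.

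TCONS_00150259 and the member with the next number, TCONS_00150260, were both called higher late, and both calls hang on the scaling. TCONS_00150259 had 1300.5 to 5487 rescaled TPM with a median of 1983 in the 9 late libraries, against 1025, 1131 and 1129 at WS_0h, a difference of 1.11 ± 0.38 on the log2 scale (SE, limma adjusted p = 0.0308). Its highest values, 5487, 3638 and 5134, came from libraries with low factors. TCONS_00150260 had 27.1 to 91.0 with a median of 61.5 late, against 35.8, 30.6 and 16.2 at WS_0h (1.01 ± 0.32, SE, limma adjusted p = 0.0188). On TPM as listed the differences were -0.01 and -0.02, and without the 5 libraries that of TCONS_00150259 was 0.61 and not called. The call of TCONS_00150259 was also lost without any of WS_0h replicates 1 to 3 (1.06 to 1.13), WS_8h replicate 1 (0.96) or WS_12h replicate 3 (0.97), and that of TCONS_00150260 without WS_0h replicate 3 (0.68), WS_8h replicate 1 (0.97), WS_10h replicate 3 (1.0) or WS_12h replicate 2 or 3 (0.97 and 0.89). Both were lost when only the 2381 lncRNAs were fitted (1.11 and 1.01), and that of TCONS_00150260 with factors from the lncRNAs above 0 in the 18 libraries (1.0).

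TCONS_00198407 and TCONS_00198910 had the largest late rises after TCONS_00017184. TCONS_00198407 had 66.1 to 190.4 rescaled TPM with a median of 107 late, against 51.9, 11.8 and 44.6 at WS_0h, without overlap (1.84 ± 0.67 on the log2 scale, SE, limma adjusted p = 0.0402). TCONS_00198910 had 29.2 to 92.2 with a median of 55.7 late, against 32.4, 18.6 and 5.96 at WS_0h (1.74 ± 0.49, SE, limma adjusted p = 0.0103). The call of TCONS_00198407 was lost in 8 of the 18 fits that left out 1 library, namely WS_0h replicate 2 (1.19) or 3 (2.11), WS_8h replicate 2 (1.71) or 3 (1.86), WS_10h replicate 1 (1.85) or 2 (1.75), or WS_12h replicate 1 (1.85) or 3 (1.73). That of TCONS_00198910 was lost without WS_0h replicate 3, at 1.11. Both calls were lost on TPM as listed, at 0.76 for TCONS_00198407 and 0.71 for TCONS_00198910, and that of TCONS_00198407 was also lost without the 5 libraries with low factors (1.6) and when only the 2381 lncRNAs were fitted (1.84).

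TCONS_00166275 and TCONS_00089853 fell late beside TCONS_00143266. TCONS_00166275 had 0.705 to 12.5 rescaled TPM with a median of 4.93 late, against 22.8, 27.3 and 22.2 at WS_0h (-2.05 ± 0.50 on the log2 scale, SE, limma adjusted p = 0.00417). TCONS_00089853 had 3.51 to 10.9 with a median of 4.64 late, against 26.2, 20.6 and 25.7 at WS_0h (-1.91 ± 0.31, SE, limma adjusted p = 0.000183). In both, every late library lay below every WS_0h library. TCONS_00089853 was already lower at WS_6h, with 5.76, 8.83 and 6.08, against 22.5, 16.4 and 11.7 at WS_2h. That WS_6h call was lost without WS_2h replicate 1 or 2 (-0.94 and -1.15), without WS_6h replicate 1 or 3 (-1.06 and -1.09) and when only the 2381 lncRNAs were fitted (-1.16). The late call of TCONS_00166275 was lost without the 5 libraries with low factors (-1.77).

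The assembly numbers place some members next to each other. Of the 217 members, 149 (68.7%) had a lncRNA with the number before or after them in the table, against 66.9% of all lncRNAs, and 14 formed 7 pairs of members with successive numbers. Members were 7.22% of the 194 neighbours of members, against 3.58% of the neighbours of any lncRNA. Of the 194, 132 (68.0%) were above 0 at WS_4h, against 72.9% next to any lncRNA.

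Among these neighbours 6 were above 0 at WS_4h alone, the reverse of the member beside them. Such neighbours were 3.09% of those of members, against 4.12% of those of any lncRNA, and they were chosen for description after their values were seen. The 6 pairs had no common relation of levels. TCONS_00192123, a member, had time point means of 209 to 610.0 rescaled TPM outside WS_4h, against 178, 164 and 173 at WS_4h in its neighbour TCONS_00192124. The member TCONS_00029463 had means of 1.59 to 3.93, against 23.9, 109.8 and 50.3 at WS_4h in TCONS_00029464. In 4 of the 6 pairs the WS_4h mean of the neighbour was below each mean that the member had outside WS_4h. The members and neighbours of the other 3 of these 4 were TCONS_00029074 (225 to 402) and TCONS_00029073 (5.60), TCONS_00150260 (27.5 to 65.9) and TCONS_00150261 (2.24), and TCONS_00190560 (7.41 to 13.9) and TCONS_00190559 (6.09). In 2 pairs it was above each of them, the second being TCONS_00101889 (0.764 to 1.5) with TCONS_00101888 (1.96). As listed, 2 of the 4 lower neighbours, TCONS_00192124 and TCONS_00190559, lay within the range of their members' means.

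An abundant member also stood beside a lncRNA that was lower, not absent, at WS_4h once libraries were rescaled. TCONS_00023717, beside the member TCONS_00023716, had 276, 648 and 1054 rescaled TPM at WS_4h, against 1591 to 9168 in the 18 other libraries, so its groups did not overlap. On TPM as listed it had 525, 1474 and 2330 at WS_4h, against 126 to 7771 in the others, with overlap. TCONS_00023717, too, was picked after its values were seen, and no test was made.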

How the data were processed

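RNA of 10 mixed B73 root tips per library was sequenced from a stranded kit. Per the study's methods, the authors trimmed the reads after FastQC, aligned them to B73 RefGen_v4 with HISAT2 2.0.5, counted PCgenes with featureCounts and turned the counts into TPM. They assembled transcripts with Cufflinks, quantified them with RSEM and kept those that passed coding filters, so the deposited lncRNA values are TPM as well. TPM keep no read depth, so no counting error or detection limit can be given, and the precision rests on 3 libraries per time point.

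All 21 libraries were assigned to time points by their labels. TPM were divided by median-of-ratios factors from the 2164 lncRNAs above 0 in all libraries, themselves divided by their median. The 18 libraries outside WS_4h were fitted with limma 3.58.1 (R 4.3.3) on log2(rescaled TPM + 1), with a mean per time point, a mean-variance trend, no filter and no replicate block. P-values were adjusted by Benjamini-Hochberg over 6098 lncRNAs, and a lncRNA was called at an adjusted p under 0.05; directed comparisons also required a log2 difference beyond 1 in either direction. WS_4h was left out because its zeros carry no spread. The study tested counts with DESeq2, which TPM do not allow. The fit was tested on simulated data. Python 3.11.15 (pandas 2.3.3, numpy 2.4.6, scipy 1.17.1, matplotlib 3.10.9) was used for tables and figures.

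Named members are those that the study's text names, the 8 of highest mean, the 5 with the highest lowest time point mean, the 3 largest calls in each direction of each comparison, the 5 steadiest with a mean above 5, and those at the edge of the rule; exceptions are marked. The members and lists were chosen with earlier results of these data known. Root tip markers were not checked, because the reference used here pairs no symbol with the PCgene identifiers. Sequences and positions of the lncRNAs were not analysed here. Alternatives were TPM as listed, other factors, a pseudocount of 0.1, a filter at a mean of 1, other sets of lncRNAs or libraries, no trend, a replicate block and leaving out each library.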

Additional observations from a re-analysis of the deposited data

How the results depend on the processing

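The counts of members called were 40 by the F test, 16 for WS_6h against WS_2h, 7 for WS_2h and WS_6h against the other 4 time points, 9 for WS_2h against WS_0h and 18 for the late time points against WS_0h. On TPM as listed they were 17, 4, 1, 1 and 22, and the median log2 difference over all lncRNAs was then -0.36 for WS_6h against WS_2h, 0.13 for the next, 0 for WS_2h against WS_0h and -0.54 for the late time points, in place of 0. When only the 2381 lncRNAs above 0 in the 18 libraries were fitted, where the adjustment and the trend rest on fewer lncRNAs, they were 19, 0, 4, 5 and 12. Without the 5 libraries with low factors they were 22, 7, 5, 7 and 21, of which 14, 3, 2, 7 and 10 were the same members as before. A pseudocount of 0.1 gave 11 for WS_2h and WS_6h against the other 4. Factors from the 18 libraries, the filter at a mean of 1, all 21 libraries, no trend and, chosen after seeing the data, leaving out the 21 lncRNAs of common offset kept the counts within 1.5 times. Leaving out 1 library gave 32 to 42, 3 to 18, 5 to 13, 5 to 13 and 11 to 19. Of 340 alternative values of single member differences 274 kept their call and 64 lost it, and 2 changed sign on TPM as listed, TCONS_00150259 (-0.00674) and TCONS_00150260 (-0.0231) late against WS_0h; of 612 that left out 1 library 90 lost it. The cause of these changes was not tested.

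With the replicate number as a block the counts were 37, 15, 6, 10 and 18. Libraries of the same number did not deviate together: the correlations of their deviations were -0.45 to 0.31 with a median of 0.00 over 45 pairs, against -0.42 to 0.40 over 90 pairs of other numbers, so the number was not used to pair samples.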
